A study of Mus musculus with 10 samples.

Results

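The regions described here are the 1491 distal regions that were open at a similar level in ILC2s of every tissue examined, 2.98% of the 50039 regions in the ATAC-seq table. A region was taken when its centre lay over 2 kb from any transcription start site (TSS) that RefSeq gives for mm10, when its mean level L was at least 7, and when the highest and the lowest L over the 10 libraries were at most 0.8 apart. L is log2(normalized count + 1), and the normalized count is the count divided by the library's median-of-ratios size factor. The choice thus used the accessibility in every library, so levels and ranges of the members, and any test on the same values, are given as descriptions. Throughout, "equal" means within this limit of 0.8. The members were set beside the 10060 other strong distal regions, which met the limits on distance and level and not that on range, the 19343 weak distal regions with a mean L under 7, and the 4796 equal regions near a TSS, which met the limits on level and range within 2 kb of a TSS.

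ILC2s are tissue-resident lymphocytes that produce type 2 cytokines. They were sorted from C57BL/6 male mice aged 6 weeks, with 2 libraries of 50000 cells each from each of 5 tissues, namely bone marrow (BM), small intestine (SI), large intestine (LI), lung, and pancreas. The cells of 16 mice were pooled for each BM, lung, and pancreas library and those of 10 mice for each LI and SI library. BM cells were gated as lineage-negative ST2+CD25+, those of LI, lung, and pancreas also by CD45 and CD127, and SI cells by CD45, CD127, an intermediate Thy1 level, and KLRG1, so gate and tissue cannot be told apart. Library totals lay between 10282987 (pancreas replicate 2) and 32797872 (lung replicate 2) counts. All 10 ILC2 marker genes on the list used here had a region within 1000 bp of their start, with a median mean L of 9.06. A region was found for 4 of 10 T cell markers (median mean L 6.11), 2 of 10 B cell markers (6.18), 3 of 10 myeloid markers (8.07), and 4 of 9 epithelial markers (6.76).

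In ATAC-seq, the enzyme Tn5 cuts accessible DNA and tags the ends for sequencing, and a region that is more accessible yields more reads. Open regions away from a TSS include enhancers, which are bound by transcription factors such as GATA, RUNX, and AP-1 proteins and often differ between tissues. They also include sites of CTCF, a zinc finger protein that stops cohesin as it extrudes chromatin loops and thereby anchors loops and domain boundaries, and many CTCF sites are occupied in most cell types. CTCF binds a long, directional motif, whereas the motifs of most other factors are short.

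The sequences below show the CTCF motif at members where it lies closest to the centre. Each is given 5′ to 3′ on the strand on which the motif reads forward, here the minus strand, with the 12-letter CTCF core in capitals and 14 bases on either side. They were read from GRCm38, the assembly of mm10.
Itga6, chr2:71812885-71812924, minus strand: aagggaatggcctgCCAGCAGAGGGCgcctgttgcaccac
Gm41051, chr13:107101767-107101806, minus strand: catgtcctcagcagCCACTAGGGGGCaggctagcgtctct
Gm32422, chr5:121842989-121843028, minus strand: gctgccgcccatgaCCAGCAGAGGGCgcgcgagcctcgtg
Gm17877, chr3:9947853-9947892, minus strand: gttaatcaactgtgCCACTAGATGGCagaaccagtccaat
4930562F07Rik, chr1:160081220-160081259, minus strand: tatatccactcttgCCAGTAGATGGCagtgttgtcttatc
Each is named after the gene with the nearest TSS, which is a label and says nothing about the gene that the region may regulate. The Itga6 site lies in an intron of *Itga6*, which encodes an integrin chain and the Gm41051 site in an intron of Gm31452, while the Gm32422, Gm17877, and 4930562F07Rik sites are intergenic.

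The central 200 bp of 4 of the 8 members with the smallest ranges follow. Letters in capitals are matches to the motifs described below, and all 4 are given on the plus strand. Bace2 is shown because its range was the smallest of all members, and it holds a CTCF core that reads forward on the minus strand. Grk2 (ETS and E-box matches), Cdc42 (AP-1), and Gm10284 (AP-1) are shown as members of small range without a CTCF core.
Bace2, chr16:97272353-97272552: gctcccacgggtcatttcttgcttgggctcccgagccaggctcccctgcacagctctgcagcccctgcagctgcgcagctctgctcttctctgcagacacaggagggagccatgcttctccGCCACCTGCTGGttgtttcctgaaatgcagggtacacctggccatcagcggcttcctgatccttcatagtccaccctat
Grk2, chr19:4300339-4300538: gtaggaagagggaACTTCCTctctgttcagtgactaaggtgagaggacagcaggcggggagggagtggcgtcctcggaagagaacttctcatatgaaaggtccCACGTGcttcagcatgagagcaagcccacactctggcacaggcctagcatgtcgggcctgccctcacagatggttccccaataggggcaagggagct
Cdc42, chr4:137367639-137367838: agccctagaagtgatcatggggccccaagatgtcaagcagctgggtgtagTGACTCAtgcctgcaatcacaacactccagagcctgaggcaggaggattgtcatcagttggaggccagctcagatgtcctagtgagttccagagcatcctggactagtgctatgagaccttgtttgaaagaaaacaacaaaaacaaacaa
Gm10284, chr8:57576290-57576489: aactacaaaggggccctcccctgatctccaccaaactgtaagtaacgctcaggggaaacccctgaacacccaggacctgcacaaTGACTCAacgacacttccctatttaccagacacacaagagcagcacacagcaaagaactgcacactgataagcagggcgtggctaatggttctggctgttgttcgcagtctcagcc
Bace2 was the intergenic region chr16:97272174-97272730, 84.3 kb from the start of *Bace2*, an aspartyl protease gene. Grk2 (chr19:4300145-4300731) lies in an intron of *Grk2*, the gene of a kinase of G protein-coupled receptors, and Cdc42 (chr4:137367443-137368033) lies 9.98 kb from the start of *Cdc42*, a small GTPase gene.

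At the Bace2 region, the normalized count was 127 and 137 in BM, 124 and 130 in LI, 137 and 142 in SI, 125 and 145 in lung, and 128 and 139 in pancreas. Its range of L was 0.230. The SI values lay above those of BM and LI, and the other tissues overlapped each other. At Grk2, the normalized counts were 841 and 855 in BM, 853 and 892 in LI, 1010 and 932 in SI, 953 and 939 in lung, and 995 and 884 in pancreas. The lowest value was in BM and the highest in SI, with a range of 0.264, and BM overlapped LI and none of the other tissues. Among the other 6 members of smallest range, those nearest to Gm36208 (in an intron of the phosphatase gene *Ppm1h*), Cdc42, Abcc12, Gm10284 (in an intron of the glycosyltransferase gene *Galnt7*), Rpl21-ps8 (in an intron of *Mbp*), and Tmem151b, the range lay between 0.265 and 0.356. Just inside the limit on range were the members nearest to Nr4a1 (0.79988) and Znrf1 (0.79988), and just outside it the regions nearest to Tbk1 (0.80002) and Tnfrsf1b (0.80004). The limit on mean L passed between Gm51454 and Gm14869 (7.001 for both) on the inside and Gm25338 and Gm34388 (6.9996 for both) on the outside. The limit on distance passed between Rimbp3 (2011 bp) and Scd2 (2015 bp) on the inside and Cep85l (1999 bp) and Mir760 (1998 bp) on the outside.

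The rule did not use sequence, so the motif content of the members was set beside that of the other sets in windows of equal length, the central 200 bp. A CTCF core was found in 94 members (6.30%, 95% Wilson interval 5.18 to 7.65) and in 1.75% (1.51 to 2.02) of the other strong distal regions, with 4.17% over all regions of the table. With 1 mismatch allowed, a setting added after the data had been seen, 288 members (19.3%, 17.4 to 21.4) and 6.49% (6.03 to 6.99) of the other strong distal regions held it, against 12.8% of all regions. Of the 270 strong distal regions with an exact core, 34.8% were members, and of those without, 12.4%. The members did not stand apart from weak distal regions in this respect, since 7.55% of these held the core and 20.9% held it with 1 mismatch. Equal regions near a TSS held it in 0.90% and 5.17%. The intervals cover counting error only, and regions are not independent replicates, so no test was made.

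The AP-1, GATA, RUNX, and ROR motifs were less frequent among members than among other strong distal regions. The shares in members lay nearer to those over all regions of the table, which include the regions near a TSS. Equal regions near a TSS held AP-1 in 4.05%, GATA in 2.86%, RUNX in 2.81%, and ROR in 0.92%. Weak distal regions held them in 18.2%, 16.8%, 12.9%, and 2.77% in the same order, so members also lay below weak distal regions. The AP-1 motif (TGANTCA) was found in 13.9% of members (12.2 to 15.7) and 22.5% of the other strong distal regions (21.7 to 23.3), with 14.9% over all regions. The GATA motif (AGATAA), read by GATA3, the lineage factor of ILC2s, was found in 11.0% (9.51 to 12.7) and 17.6% (16.9 to 18.4), with 12.7% over all regions. The RUNX motif (TGTGGTT) was found in 9.39% (8.01 to 11.0) and 14.6% (13.9 to 15.3), with 10.2% over all regions. The ROR motif (TAGGTCA), read by RORα, was rare in both, at 1.74% and 3.09%, with 2.18% over all regions. The intervals of members and other strong distal regions did not overlap for AP-1, GATA, RUNX, and ROR, and they overlapped for ETS (AGGAAGT, 13.2% and 15.4%, 11.4% over all regions) and IRF (GAANNGAAA, 6.51% and 6.07%, 5.45% over all regions). The SP/KLF motif (CCCGCCC), common at promoters, was more frequent in members, at 8.32% (7.02 to 9.83) against 4.79% (4.39 to 5.23), and reached 29.3% in the equal regions near a TSS and 12.5% over all regions.

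**Figure D1:**
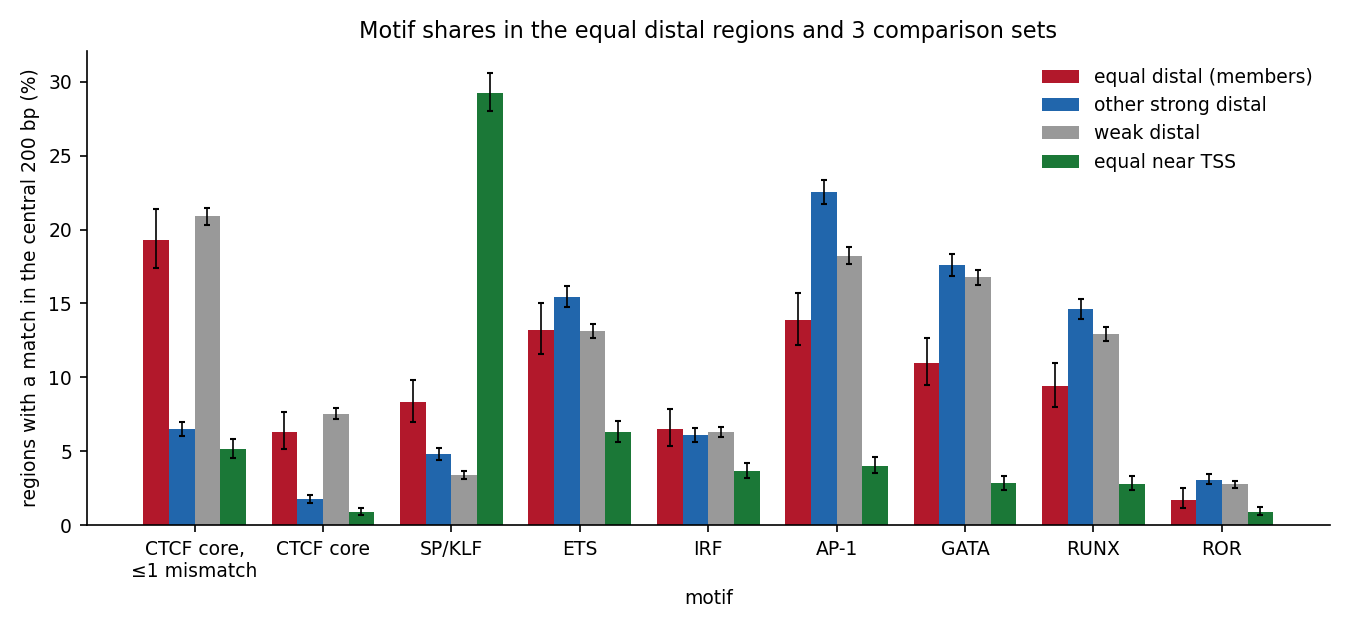
Share of regions (y axis, %) with a match in the central 200 bp for 9 motif searches (x axis) in the 1491 equal distal regions, the 10060 other strong distal regions, the 19343 weak distal regions, and the 4796 equal regions near a TSS, with bars starting at 0 and error bars for 95% Wilson intervals. The CTCF core with 1 mismatch stands at 19.3% in members and 6.49% in other strong distal regions, whereas AP-1 stands at 13.9% and 22.5%.

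A search over all sequences of 8 bases, which named no factor beforehand, gave related sequences. The 3 sequences with the largest surplus in members, AGAGGGCA (4.56% of members and 2.30% of other strong distal regions), CCAGCAGA (3.96% and 1.93%), and CCACTAGG (2.88% and 0.97%), match letters of the CTCF core. The first runs from the end of the core into its flank and is in none of the CTCF sites shown above. The others are forms of the opening letters of the core and are found in sites shown above. The largest deficits were at GTGACTCA (3.96% and 7.33%), ATGACTCA (3.15% and 6.22%), and GTGAGTCA (3.29% and 6.04%), which hold the AP-1 motif, and at AAACCACA (4.16% and 7.24%), which holds the RUNX motif on the other strand. The remaining motifs were NFY (CCAATCA, 2.88% of members and 2.54% of other strong distal regions), CRE (TGACGTCA, 0.67% and 0.91%), E-box (CACGTG, 4.29% and 4.24%), NRF1 (GCGCATGCG, 0.40% and 0.17%), YY1 (AAGATGGCG, 0.54% and 0.15%), TCF/LEF (CTTTGAT, 2.95% and 3.56%), STAT (TTCCNGGAA, 0.74% and 0.82%), NF-kB (GGGANTTCC, 2.41% and 2.59%), SMAD (GTCTGNC, 11.1% and 13.0%), AHR (TTGCGTG, 1.01% and 0.76%), and C/EBP (TTGCNNAA, 7.51% and 7.41%). Over all regions of the table these stood at 3.42%, 0.97%, 4.77%, 0.55%, 0.78%, 2.71%, 0.66%, 1.85%, 12.1%, 0.85%, and 6.80% in the same order. Of these, the intervals parted for YY1, on 8 members. ZNF143 (ACTACAATT) was found in 0 members, in 0.099% of other strong distal regions, and in 0.13% of all regions. The short inner part of the CTCF core (AGGNGGC), which overlaps the core in many matches, was found in 22.2% and 14.6%, with 22.3% over all regions. Motifs were read on both strands, and the AP-1, CRE, E-box, and STAT letters read the same on either.

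The motif content changed with the range of L on both sides of the limit. Among all strong distal regions, the CTCF core with 1 mismatch was found in 21.7% of the 433 members with a range up to 0.6, in 21.2% and 16.4% of those up to 0.7 and up to 0.8, in 13.6% of regions between 0.8 and 1, in 5.84% between 1.25 and 1.5, and in 2.12% of the 519 regions over 3. AP-1 went the other way, from 14.8% through 10.6% and 15.5% in the members to 15.9% between 0.8 and 1, 21.8% between 1.25 and 1.5, and 28.5% over 3. GATA went from 9.47% to 18.9% and RUNX from 6.93% to 14.1% between the same ends. SP/KLF fell from 8.08% to 1.35%. The members were therefore one end of a gradual change and no step was seen at 0.8.

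**Figure D2:**
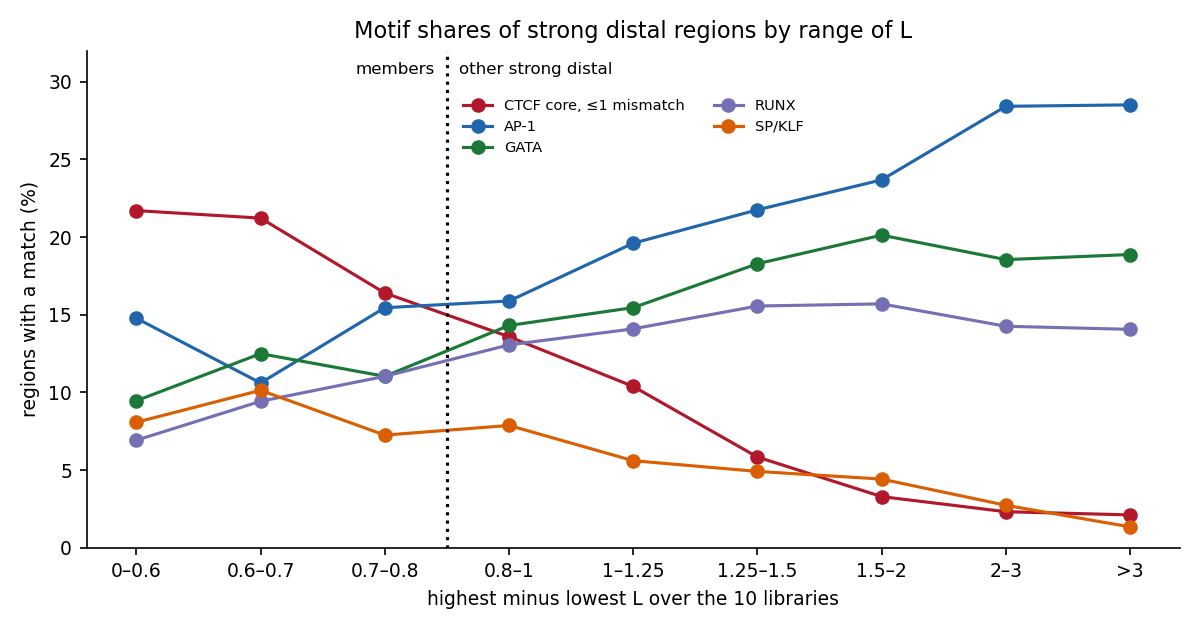
Share of strong distal regions (y axis, %) with a match to 5 motifs, in bins of the highest minus the lowest L over the 10 libraries (x axis), with a dotted line at the limit of 0.8 between members and other strong distal regions. CTCF falls from 21.7% to 2.12% and AP-1 rises from 14.8% to 28.5% between the first and the last bin.

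CTCF-bearing members were the weaker ones. The median mean L was 7.51 in the 288 members with the core at 1 mismatch and 8.47 in the 1203 without. By level, 41.3% of the 349 members with a mean L of 7 to 7.5 held the core with 1 mismatch, as did 25.6% of those from 7.5 to 8, 11.7% from 8 to 8.5, 11.0% from 8.5 to 9, 6.02% from 9 to 10, and 3.15% of the 127 members at 10 or over. The other strong distal regions held it in 10.4% of the lowest bin and 3.17% of the highest, so the sets were apart at low levels and alike at the top, where 4 members held it. AP-1 rose with level in members, from 9.17% to 20.5%, while it stayed between 22.3% and 23.8% in the other strong distal regions up to a mean L of 10 and was 13.8% above. AP-1 was thus less frequent in members in each bin below 10 and more frequent in the highest bin, where 26 members held it.

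**Figure D3:**
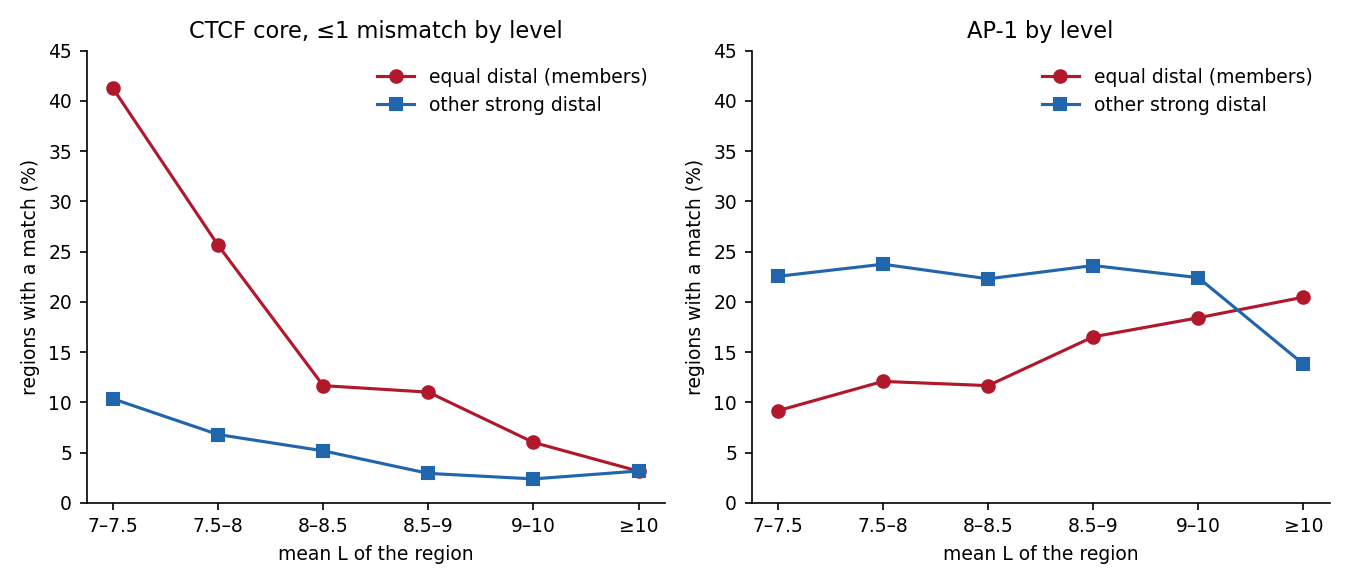
Share of members and of other strong distal regions (y axes, %) with the CTCF core at 1 mismatch (left) or AP-1 (right) in bins of mean L (x axes). In members CTCF falls from 41.3% to 3.15% and AP-1 rises from 9.17% to 20.5% as the level rises.

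The same held below the limit on level. Of the distal regions with a mean L of 6.5 to 7, 350 had a range of at most 0.8, and 53.1% of these held the CTCF core with 1 mismatch, against 15.2% of the 4115 with a larger range. Between 6 and 6.5 the shares were 62.8% of 317 regions and 21.1% of 4906. The exact core rose to 11.7% of the regions chosen when the limit on mean L was lowered to 6 and fell to 2.53% when it was raised to 8. These regions below 7 are not members and were looked at after the data had been seen.

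The core lay towards the middle of the members. Among the 394 members with a core at 1 mismatch in the central 400 bp, it was within 25 bp of the centre in 34.0% and within 50 bp in 53.8%, with a median distance of 45.5 bp. In other strong distal regions 23.9% lay within 25 bp, and in weak distal regions 54.9%. The exact core read forward on the plus strand in 39 members and on the minus strand in 55. Members with the core at 1 mismatch held fewer other motifs, with ETS in 6.25%, AP-1 in 7.29%, GATA in 7.64%, and RUNX in 5.90%, against 14.9%, 15.5%, 11.8%, and 10.2% of the members without it. They were more often intergenic (45.5% and 40.0%) and slightly narrower (median 537.5 and 560 bp). Only 3 of the 111 members of 900 bp or wider held a core in the central 200 bp.

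**Figure D4:**
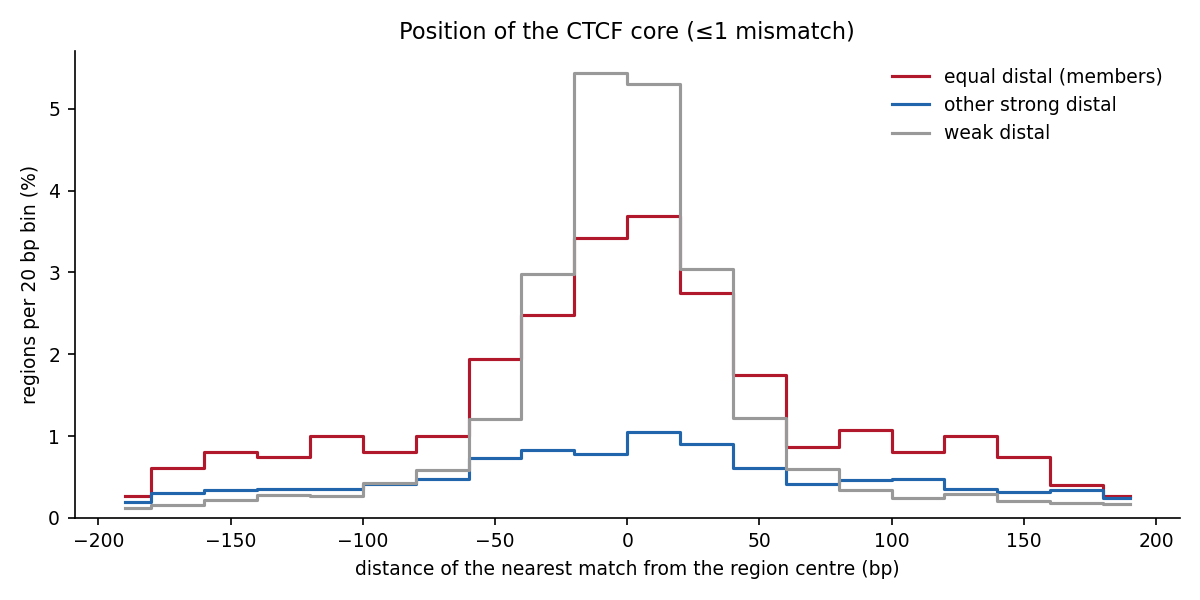
Share of regions (y axis, %, in bins of 20 bp) whose CTCF core match nearest to the centre, at up to 1 mismatch, lies at a given distance from the region centre (x axis, bp) in members, other strong distal regions, and weak distal regions. All 3 have their highest bins next to the centre, at 3.69% in members, 1.05% in other strong distal regions, and 5.44% in weak distal regions.

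At the 5 members shown above for their centred CTCF core, the motif centre lay 1 to 3 bp from the region centre. Itga6 (chr2:71812652-71813155) had normalized counts of 168 and 141 in BM, 159 and 159 in LI, 148 and 134 in SI, 152 and 192 in lung, and 189 and 172 in pancreas, with a mean L of 7.34. Both SI values lay below those of LI, lung, and pancreas, and the SI values overlapped those of BM. Gm41051 (chr13:107101528-107102042) ranged from 156 to 226 with a median of 180. The other 3 had medians of 143 (Gm32422), 166 (Gm17877), and 158 (4930562F07Rik), so all 5 lay in the lower levels of the set.

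In base composition the members stood between other distal regions and promoters. Their median GC content was 49.7%, against 47.5% in other strong distal regions and 62.1% in equal regions near a TSS. The ratio of observed to expected CpG was 0.305, 0.238, and 0.762 in the same order, and 112 members (7.51%) were rich in CpG, with a ratio of at least 0.6 and a GC content of at least 55%, against 3.12% and 70.5%. Over all regions of the table, which include those near a TSS, the median GC content was 49.8%, the CpG ratio 0.295, and the CpG-rich share 21.5%. Of the 112 CpG-rich members, 34.8% held the SP/KLF motif and 4.46% AP-1, and 0 of them held RUNX. Median widths were 554 bp in members and 552 bp in other strong distal regions. In all, 752 members (50.4%) lay in introns, 127 (8.52%) in exons, and 612 (41.0%) between genes, against 57.3%, 6.21%, and 36.5% of other strong distal regions.

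Members lay nearer to a TSS than other strong distal regions, with a median distance of 9.43 kb against 11.8 kb, and 3.69% and 8.20% lay over 50 kb away. GENCODE M21, a wider annotation, gave a TSS within 2 kb of 231 members (15.5%) and of 11.7% of other strong distal regions. The 231 were CpG-rich in 16.5%, against 5.87% of the other 1260 members, and the CTCF core with 1 mismatch was found in 17.3% and 19.7%. The farthest from a RefSeq TSS were a region 189 kb from Gm8680, 2 regions in *Prune2* (176 and 121 kb, nearest TSS Gcnt1), 1 in an intron of the DNA repair gene *Rad51b* (149 kb), 1 near Slc24a2 (138 kb), and 1 in an intron of the titin gene *Ttn* (136 kb). Of these 6, the *Rad51b* region was the most open, with normalized counts between 1085 and 1777. In the order given, the nearest GENCODE TSS lay 64586, 24931, 4396, 277905, 63649, and 5837 bp away, so these distances depend on the annotation.

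Members were scattered over the genome. They had 1299 different nearest genes, of which 1135 had 1 member, 140 had 2, 20 had 3, and *Apbb1ip*, *Etv6*, *Map4k4*, and *Maml3* had 4. All 3 strong distal regions nearest to *Bcl6*, the gene of a transcriptional repressor, were members, as were 3 of 4 nearest to *Pdcd1lg2*, which encodes the PD-1 ligand PD-L2. Both genes were picked after their values were seen, and members were 12.9% of all strong distal regions. Among other genes with 3 members, the share was 3 of 3 at Gm31156, 3 of 20 at *Nck2*, and 3 of 22 at *Akap13*. Another member lay within 10 kb of 216 members (14.5%), and the median gap was 123 kb. On chromosome Y, 0 of 26 strong distal regions were members. On the other chromosomes, the share of strong distal regions that were members went from 8.58% on chromosome 11 to 17.9% on chromosome X, on which 28 members lay.

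The highest levels of the set were found at the following members, of which the first pair is shown because they hold similar sequence, and Nr4a1 because it belonged to the 8 most open members and also had the range closest to the limit. Each sequence is the central 200 bp on the plus strand, and the capitals are SP/KLF matches.
Gm29726, chr1:195241630-195241829: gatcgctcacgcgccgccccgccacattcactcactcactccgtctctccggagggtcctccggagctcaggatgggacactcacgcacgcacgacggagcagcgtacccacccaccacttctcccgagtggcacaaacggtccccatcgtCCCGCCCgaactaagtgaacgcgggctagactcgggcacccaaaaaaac
Gm50357, chr19:61266758-61266957: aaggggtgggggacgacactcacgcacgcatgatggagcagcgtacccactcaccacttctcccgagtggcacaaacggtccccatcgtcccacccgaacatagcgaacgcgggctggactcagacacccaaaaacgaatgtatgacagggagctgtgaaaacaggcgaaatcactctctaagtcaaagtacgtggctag
Nr4a1, chr15:101246823-101247022: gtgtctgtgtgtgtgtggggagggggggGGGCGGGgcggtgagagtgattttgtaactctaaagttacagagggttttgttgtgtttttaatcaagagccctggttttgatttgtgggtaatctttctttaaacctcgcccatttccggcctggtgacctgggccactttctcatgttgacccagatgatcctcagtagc
Gm29726 (chr1:195241477-195241982) had the highest mean L, 12.49, with normalized counts of 6259 and 5498 in BM, 5607 and 5716 in LI, 5616 and 4926 in SI, 5529 and 5711 in lung, and 6317 and 6412 in pancreas. It aligned with Gm50357 (chr19:61266603-61267112, mean L 11.30) over 201 bp at 90.1% identity, and with another member, nearest to Gm7102 (mean L 10.72), over 411 bp at 90.02%. Reads were kept only where they mapped uniquely, so the counts of near-identical copies are uncertain. Nr4a1 (chr15:101246298-101247547), near the gene of an orphan nuclear receptor induced by activation, ran from 1645 in LI replicate 1 to 2864 in BM replicate 1.

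The other 5 of the 8 most open members were nearest to Gm6410 (mean L 11.38), the glucose transporter gene *Slc2a3* (11.34), *Fgd2* (11.25), Gm39712 (11.18), and *Hook2* (11.17). GENCODE placed a TSS 722 bp from the Gm29726 region, 298 bp from the Gm6410 region, and 53 bp from the Slc2a3 region, so some of the most open members lie near starts that RefSeq does not list. In all, 27 members belonged to 32 pairs that shared at least 200 bp at 90% identity or more. A group of 6 of these, nearest to Hunk, Scgb2a2, Gpr35, Fabp12, Ulbp1, and Mrs2, was similar in every pair, with mean L between 7.02 (Gpr35) and 8.77 (Hunk). Soft-masked repeats made up over 50% of 42 members (2.82%), against 4.19% of other strong distal regions, and 0 members resembled mitochondrial DNA.

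Members near genes of ILC2 biology were examined through a list of 40 genes. In all, 17 members were nearest to 12 of these, namely *Ahr*, *Cd69*, *Ets1*, *Gata3*, *Id2*, *Il2ra*, *Il5*, *Rora*, *Runx1*, *Runx3*, *Tcf7*, and *Tox*. They were 10.4% of the list's 164 strong distal regions, against 12.9% of all strong distal regions, so the list did not hold more members than its share of strong regions. The central 200 bp of a pair of them are shown on the plus strand, with IRF (Runx3) and SMAD (Il2ra) matches in capitals. Runx3 was taken because it had the smallest range among them and Il2ra because its gene product was used for sorting. The Il2ra window also holds a CTCF core with 1 mismatch, which is left in small letters.
Runx3, chr4:135203384-135203583: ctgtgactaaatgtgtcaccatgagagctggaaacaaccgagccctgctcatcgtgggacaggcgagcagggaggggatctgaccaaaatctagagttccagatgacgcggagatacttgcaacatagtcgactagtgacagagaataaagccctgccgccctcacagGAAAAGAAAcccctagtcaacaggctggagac
Il2ra, chr2:11664018-11664217: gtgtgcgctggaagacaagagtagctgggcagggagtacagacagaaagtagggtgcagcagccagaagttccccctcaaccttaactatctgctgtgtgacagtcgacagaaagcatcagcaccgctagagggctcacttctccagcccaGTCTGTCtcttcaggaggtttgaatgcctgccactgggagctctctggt
Runx3 (chr4:135203217-135203750) lies 50.0 kb from *Runx3*, which encodes a RUNX factor, and ran from 917 to 1276, both of these in BM. A second member 25.8 kb from the gene ran from 112 to 185, and these were 2 of the gene's 6 strong distal regions. *Il2ra* encodes CD25, which served as a sort marker in every tissue other than SI. Its intronic member chr2:11663862-11664373 had 438 and 372 in BM, 283 and 366 in LI, 365 and 398 in SI, 372 and 463 in lung, and 395 and 305 in pancreas. The rule kept only regions with all 10 libraries close to each other, so nothing about the CD25 gate is read from these values. Members were 2 of 9 strong distal regions at *Il2ra*.

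The members nearest to transcription factor genes of the lineage covered a wide span of levels. The *Id2* member, 3.32 kb from the gene of a repressor of E proteins that innate lymphoid cells require, ran from 713 to 1197 normalized counts. The *Gata3* member, in an intron, ran from 224 to 376 and was 1 of 6 strong distal regions. The intronic *Ets1* member ran from 526 to 818 (1 of 11), and 2 intronic *Runx1* members from 325 to 513 and from 276 to 476 (2 of 9). The *Rora* member (164 to 262) was 1 of 16, the *Tox* member (217 to 347) 1 of 8, and the *Ahr* member (177 to 307) 1 of 7. At *Tcf7*, the gene of TCF-1, 2 of 3 strong distal regions were members, and they ran from 109 to 178 and from 183 to 267. At *Il5*, the gene of a type 2 cytokine, 1 of 3 was a member, 16.7 kb from the gene, and ran from 350 to 584. Most strong distal regions of *Gata3*, *Rora*, *Ets1*, *Runx1*, *Ahr*, and *Tox* thus had a range over the limit. The same held for strong distal regions at large, of which 12.9% were members.

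Of 26 genes of chromatin architecture, 6 had a strong distal region and 2 had a member, both in their own introns. These members were 25% of the list's 8 strong distal regions, against 12.9% of all strong distal regions. *Nipbl*, which encodes the cohesin loader, had 1 of its 2 strong distal regions in the set, at 111 to 179 normalized counts, and *Adnp* had its single one, at 102 to 168. The Nipbl member held a CTCF core with 1 mismatch and the Adnp member held none. Marker lists of other cells had few strong distal regions. Members were 2 of 7 for T cell markers, both nearest to *Trac*, the T cell receptor alpha constant gene, at up to 2335 normalized counts. They were 0 of 2 for B cell markers, 2 of 3 for myeloid markers (*Adgre1* and *Cebpe*), and 0 of 2 for epithelial markers. With so few regions, nothing is read from the shares of these lists or of the architecture list.

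Across libraries, the median L of the members lay between 8.16 (LI replicate 1) and 8.33 (lung replicate 2 and SI replicate 2). The median count behind these values was 141 in pancreas replicate 2 and 589 in lung replicate 2, and the members held between 2.71% and 3.88% of a library's counts. The median deviation from a member's own mean was −0.113 in LI replicate 1 and −0.0604 in pancreas replicate 2, the shallowest libraries, and between −0.0328 and 0.0617 in the other 8. The lowest value was in LI replicate 1 at 244 members, pancreas replicate 2 at 229, SI replicate 1 at 219, BM replicate 1 at 177, and in each of the other 6 libraries at 71 to 128. The part of depth in these deviations was not tested. By tissue mean, the highest tissue was BM at 382 members, lung at 348, SI at 299, pancreas at 263, and LI at 199.

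**Figure D5:**
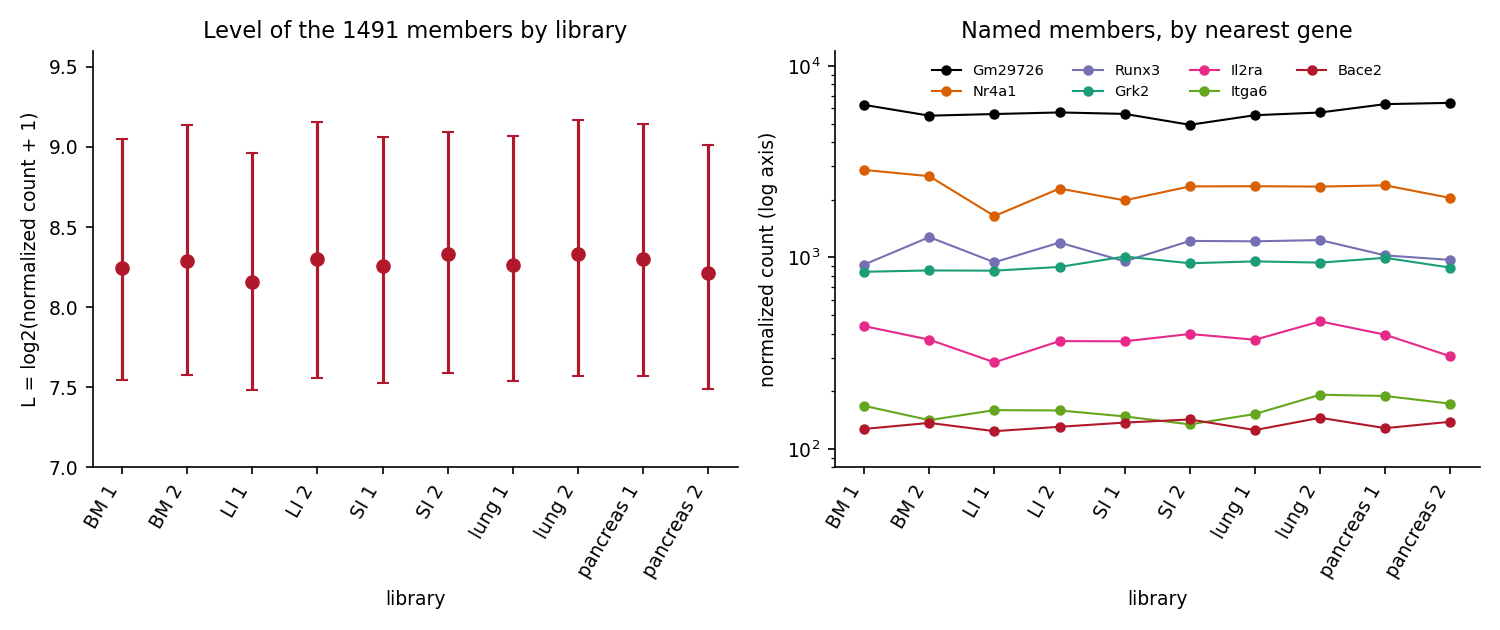
Left, median L of the 1491 members (points) with the lower and upper quartiles (bars) in each library (x axis), and right, normalized counts (log axis) of 7 named members in each library, by nearest gene. Medians lie between 8.16 and 8.33, and the named members keep their order from Gm29726 at the top to Bace2 at the bottom, other than Runx3 and Grk2, which cross in SI replicate 1, and Itga6 and Bace2, which cross in SI replicate 2.

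The median SD of L was 0.168 between tissue means and 0.183 within replicate pairs in members, against 0.435 and 0.277 in other strong distal regions. The rule caps both SDs in members. The first of them is taken over means of 2 libraries and the second over single libraries, so the pair cannot be compared directly. On the scale of a single library, counting alone would give a median SD of 0.0857 in members and 0.100 in other strong distal regions. The deviations of members from their own means had a Pearson correlation over the 1491 members of 0.044 to 0.295 in the 5 replicate pairs and of −0.356 to 0.0888 in the 40 pairs of different tissues. Members are not independent points and share the libraries' depth, and a deviation from the mean pushes correlations below 0.

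In edgeR's quasi-likelihood F test over the 5 tissues, 44.2% of the 49981 regions tested differed at an adjusted p under 0.05. The same call was made at 19 members (1.27%), 6327 other strong distal regions (62.9%), and 116 equal regions near a TSS (2.42%). The rule used the same values, so nothing is read from the low share. At an unadjusted p under 0.05 in the same F test, 74 members passed (4.96%), against 72.7% of other strong distal regions and 53.0% of all regions. With DESeq2's likelihood ratio test, 56 members were called, beside 24526 of all regions tested.

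How far the choice carried over to other libraries was described by choosing on one replicate of each tissue and reading the range in the other. Of 3258 distal regions chosen on the replicate 1 libraries, 62.1% had a range of at most 0.8 in the replicate 2 libraries, against 33.0% of all strong distal regions and 21.4% of those not chosen. Of 3807 chosen on replicate 2, 53.2% stayed within 0.8 in replicate 1, against 27.9% and 15.7%. The exact CTCF core was found in 4.94% and 4.49% of the regions chosen in these ways, and in 1.45% and 1.33% of those not chosen. The remaining regions of each choice lay outside the limit in the libraries that had not been used.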

How the data were processed

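ATAC-seq reads of 10 libraries (5 tissues, 2 libraries each) were mapped to mm10 by the authors with Bowtie2, and uniquely mapped reads were kept. Peaks were called with MACS2 in each library, those shared by the replicates were joined over tissues with HOMER, and reads per joined peak were counted with bedtools. The deposited table holds these raw counts as whole numbers, without normalization. The methods at hand name no removal of duplicate reads, blacklist, or shift for the transposase. From the counts, size factors were taken over the 49981 regions with counts in every library, and L was formed with a pseudocount of 1. TSSs were all gene and transcript starts in RefSeq for GRCm38.p6, whose chromosome lengths held all regions. Sequence was read from the same assembly (pysam 0.24.0), and members were aligned with each other by BLAST 2.17.0. Tissue was tested in edgeR 4.0.16 (TMM, glmQLFit, glmQLFTest, Benjamini-Hochberg adjustment) over all regions after a test on simulated data, with DESeq2 1.42.0 as an alternative.

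The members, gene lists, and motifs were chosen with earlier results of these data known. Named members followed a fixed rule, namely the 8 with the smallest range, the 8 with the highest mean L, the 6 farthest from a TSS, the 6 with a CTCF core nearest the centre, up to 12 at listed genes, and 2 on either side of each limit. Of these named members, 2 are not reported in full here. Members at the other listed genes, pairs of similar sequence, and genes with several members were named after their values were seen. The methods call the 2 libraries of a tissue biological duplicates, and the labels number them. Intervals on shares of regions cover counting error only. Alternatives covered scaling, pseudocount, each limit, annotation, depth, windows, and each library.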

Additional observations from a re-analysis of the deposited data

How the results depend on the processing

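The number of members depends on each limit and on the libraries used. It was 891 with scaling by total counts, 433 and 3014 with a range of at most 0.6 and 1, 869 with a mean L of at least 8, 844 with libraries thinned to the smallest, 3043 and 4035 on replicate 1 or 2 alone, and 1562 to 2162 with each library left out. The exact CTCF core was found in 4.71% of members with total counts, 5.11% with a range up to 1, 11.7% and 2.53% with a mean L of at least 6 and 8, 2.61% with thinned counts, 4.30% and 5.15% on replicate 1 or 2 alone, 4.36% and 8.79% in windows of 100 and 400 bp, and 4.90% to 7.63% with each library left out. Members nearest to an ILC2 list gene made up 0.69% with a range of at most 0.6, against 1.14% of the 1491. The share within the limit in the held-out replicate 2 was 48.9% with total counts, 42.0% and 74.5% with a range of at most 0.6 and 1, 55.4% and 68.9% with a mean L of at least 6 and 8, and 67.2% with thinned counts. The cause of these shifts was not tested, other than that a limit changes the set by its construction. In all alternatives run, members exceeded other strong distal regions in CTCF core (by 1.85 to 7.53 percentage points), CTCF core with 1 mismatch (4.64 to 19.1), and SP/KLF (1.45 to 5.83), and lay below them in AP-1 (−10.3 to −4.69), GATA (−8.72 to −3.52), and RUNX (−7.26 to −2.88). The median GC content of members stayed between 48.8% and 51.0%. Regions that differed between tissues numbered 15689 to 25165 with each library left out, 22287 with DESeq2's size factors, and 24526 with DESeq2's likelihood ratio test.

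With the replicate number as a replicate block the count was 22051, against 22082 without it. Differences between replicates correlated between −0.226 and 0.196 over the 10 pairs of tissues. The correlation was over 0.1 in 4 of them (LI with BM, SI, and lung, and SI with lung). It lay between −0.226 (lung) and −0.101 (BM) in the pairs with pancreas. The labels name nothing that same-numbered libraries share, and the numbers were not taken to pair them.

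The shallowest library held a median of 141 counts per member, and the part of depth in the choice was not tested apart from the thinned counts, which also lower L. A region that misses the limit on range is not shown to differ between tissues, and a member is not shown to be equal beyond the spread of 2 libraries per tissue.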
